A study of Mus musculus with 31 samples.

Results

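The genes described here are 33 genes of glycolysis and of the transcriptional response to low oxygen, out of 31053 genes in the deposited mouse count tables. They were listed by name for their place in the pathway, with no threshold on a measured value, and are ordered below by role: 2 glucose transporters, 8 preparatory enzymes, 2 enzymes of fructose-2,6-bisphosphate, 5 payoff enzymes, 4 genes of pyruvate and lactate fate, 3 genes of oxygen sensing and 9 other hypoxia targets. The study sequenced RNA of Th17 cells, CD4+ helper T cells that make interleukin-17, from C57/B6 mice in 3 experiments, each with its own table. In 2 of them, naive 2D2+ T cells, which carry a transgenic receptor for a myelin protein, were differentiated in culture to the homeostatic Th17 state (Th17Hom). They were moved into Rag1 KO recipients, which make no T or B cells but keep their myeloid cells. At the peak of experimental autoimmune encephalomyelitis, 2000 T cells per library were collected by sorting out of the central nervous system (CNS). The first compared Cyp11a1 cKO cells (6 libraries) with WT cells (4 libraries); Cyp11a1 starts steroid hormone synthesis from cholesterol. The second compared GR cKO cells (4 libraries) with WT cells (5 libraries); GR is the glucocorticoid receptor, encoded by Nr3c1. The in vitro experiment used WT inflammatory Th17 cells (Th17Inf) from spleen and draining lymph nodes. They were kept for 2 days as untreated controls, with dexamethasone (Dex, a synthetic glucocorticoid), with TGF-β1 (a cytokine that can restrain inflammatory T cells), or with TGF-β1 + Dex, in 3 libraries each. The driver of each deletion, the exons removed and the doses are not given in the sources used here, nor whether libraries of a group came from separate mice or cultures. The p-values therefore measure the spread between libraries.

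Glycolysis splits glucose into pyruvate in the cytosol. It is known to be used heavily by activated T cells, which take up glucose through Slc2a1 (GLUT1) and Slc2a3 (GLUT3). The transcription factor HIF-1α, encoded by Hif1a, is destroyed when oxygen is present after hydroxylation by the Egln enzymes. When it is stable it binds hypoxia response elements and raises many glycolysis genes together with targets such as Egln3, Bnip3 and Ero1l; in Th17 cells it is also known to act outside hypoxia.

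Libraries of the Cyp11a1 experiment held 4322688 to 5118543 counts, those of the GR experiment 3552871 to 5623305, and the in vitro libraries 2769203 to 4291149. All 14 T cell markers were detected in every library. Of 21 markers of myeloid cells and microglia, all 21 were detected in every CNS library. Their summed level was 570 to 823 CPM (counts per 1000000 after TMM scaling) in Cyp11a1 WT, 803 to 1536 CPM in Cyp11a1 cKO and 5423 to 25135 CPM across the GR libraries. In vitro the sum was 93.7 to 141 CPM, and Csf1r, Itgam, Adgre1, C1qa and Cybb were at 0 counts in every library. Cyp11a1 itself had 0 counts in 4 of 4 WT and 5 of 6 cKO libraries from the CNS, so its level does not check that label. Nr3c1 was at 6.76 to 10.2 CPM in GR cKO and 13.0 to 18.8 CPM in GR WT, without overlap (log2 fold change -0.83, SE 0.18, edgeR adjusted p = 0.580).

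The untreated cultures carried most of the module at high levels. Levels per kilobase were taken over all annotated exons of a gene joined together. That length can exceed the length of the transcript made, so the order of genes and the ratios between genes depend on it. On this scale Gapdh, which oxidises glyceraldehyde-3-phosphate, led the controls at 2596 ± 50.6 CPM per kb (SD, n = 3). Ldha, which turns pyruvate into lactate, followed at 1320 ± 27.9, the aldolase gene Aldoa at 1308 ± 47.7 and Pgk1, which makes ATP in the payoff phase, at 1018 ± 30.3 CPM per kb. Near-identical pseudogene or paralog sequences exist for these and for Tpi1, Pgam1, Eno1 (with Eno1b) and Pkm, so estimates for them can move between copies. Strand was not recorded, so reads of an antisense partner cannot be told apart from those of a member. Among the hypoxia targets the level was 186 ± 14.6 CPM per kb for Bnip3, a mitophagy receptor. The transporter Slc2a3, at 67.7 ± 3.22, lay above Slc2a1, at 13.8 ± 1.305 CPM per kb. Vegfa, the secreted angiogenic factor, lay at 0 to 2.799 CPM in vitro and 0 to 4.45 CPM in the CNS and passed the filter on low counts in no experiment; P4ha2, a collagen prolyl hydroxylase, did not pass it in either CNS table, nor did Pfkfb4 and the Myc antagonist Mxi1 in the Cyp11a1 table.

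Levels in the untreated cultures were set beside those of the sorted CNS cells of WT genotype as a description. The tables were normalized separately, and the cells differ in Th17 type, origin and myeloid RNA as well as in culture. In bulk RNA, fewer cells of a type and less RNA per cell cannot be told apart. The 29 members that passed the filter in all 3 tables were all higher in the control mean than in the Cyp11a1 WT mean, against 63.3% of all 9193 genes, and 21 of the 29 were more than 4 times higher, against 3.81% of all genes. The median ratio was 4.81 for the members and 1.18 for all genes; against GR WT it was 4.92 and 1.22. The ratio to Cyp11a1 WT was highest for Bnip3 (75.1) and Egln3 (39.3), an oxygen sensor that is itself a HIF target. It was 29.9 for Slc2a3, 19.0 for the aldolase gene Aldoc and 15.6 for Ero1l, which reoxidises protein disulfide isomerase in the endoplasmic reticulum. Slc16a3, the lactate exporter MCT4, had 12.9 and Ndrg1, a stress-responsive gene, 11.8. Other enzymes had lower ratios, such as 7.47 for Pgk1, 6.95 for Tpi1, 4.81 for Gapdh and 4.16 for Ldha, and Slc2a1 had 5.29. Apart from Aldoc, the glycolysis enzymes among the 29 lay between 2.22 (Pfkfb3) and 8.25 (Hk2). Some hypoxia targets lay in the same range, with 6.57 for Higd1a, 4.80 for P4ha1 and 3.52 for Ankrd37, so the 2 roles overlapped in part. Hif1a mRNA differed least of these, by 2.04. Pfkfb3, which makes the activator of phosphofructokinase, had a ratio of 2.22 to Cyp11a1 WT and 0.796 to GR WT. Balance within the transporter pair differed as well. The level per kilobase of Slc2a3 was 4.92 ± 0.585 times that of Slc2a1 in the controls (n = 3). It was 0.872 ± 0.0892 times in Cyp11a1 WT (n = 4) and 0.584 ± 0.135 times in GR WT (n = 5). In the same order, mean ratios were 34.1, 3.56 and 3.31 for Egln3 to Egln1 and 19.0, 3.91 and 7.35 for Slc16a3 to Slc16a1. Mean ratios were 0.925, 0.393 and 1.32 for Hk2 to Hk1, and 2.23, 6.26 and 1.86 for Pfkfb3 to Pfkfb4. GR WT overlapped the controls in both pairs. Hk2 to Hk1 was 0.760 to 2.26 in GR WT and 0.793 to 1.01 in the controls. Pfkfb3 to Pfkfb4 was 1.47 to 2.19 in GR WT and 1.93 to 2.50 in the controls. In Cyp11a1 WT it spread from 2.55 to 12.6, with Pfkfb4 at only 0.530 to 3.68 CPM.

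**Figure D1:**
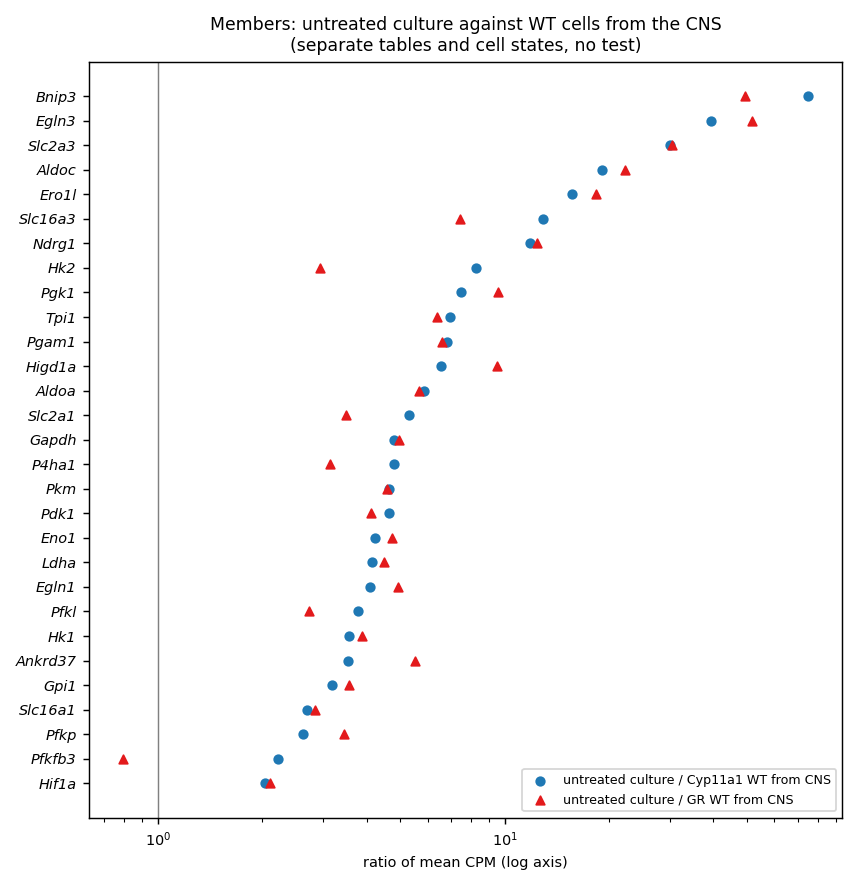
Mean CPM of the 3 untreated cultures divided by the mean of the 4 Cyp11a1 WT CNS libraries (circles) or the 5 GR WT CNS libraries (triangles), on a log axis, for the 29 members tested in all 3 tables. Every circle lies above 1, with Bnip3 at 75.1 and Hif1a at 2.04.

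Sequence before the start sites was read for 30 of the 33 members from RefSeq (GRCm38.p6); Slc2a3, Ero1l and Ndrg1 were not matched. The search was for ACGTG, the core of the hypoxia response element, on both strands (CACGT on the strand shown), in the 250 bases before each start. Of 43 member windows, 22 held it (51.163%), against 16.572% of 32851 windows of all genes, and 19 members had it. The list holds hypoxia targets by choice, so this share is a description and not a test. Windows of alternative starts were counted separately, also where they overlap, as for Aldoa. The palindrome CACGTG, which holds the core on both strands and is also the E-box bound by other factors, stood in 5 member windows (11.628%, against 6.021% of all windows). A match describes letters and not a bound site. The 4 windows shown run 5′ to 3′ on the gene's strand with the core in capitals. They were picked because they cover a transporter, a payoff enzyme, the lactate enzyme and an oxygen sensor. All 4 hold the core, so they do not stand for all member windows. The other Ldha window (chr7:46846832-46847081) held no core, nor did any window of the payoff enzymes Gapdh and Eno1. They are Slc2a1 at chr4:119108495-119108744 (plus strand), Pgk1 at chrX:106186850-106187099 (plus strand), Ldha at chr7:46845554-46845803 (plus strand) and Egln3 at chr12:54203875-54204124 (minus strand).
Slc2a1: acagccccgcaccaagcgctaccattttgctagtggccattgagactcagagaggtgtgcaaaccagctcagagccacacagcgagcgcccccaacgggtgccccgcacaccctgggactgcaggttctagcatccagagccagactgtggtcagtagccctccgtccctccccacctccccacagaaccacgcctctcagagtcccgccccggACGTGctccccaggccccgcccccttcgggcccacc
Pgk1: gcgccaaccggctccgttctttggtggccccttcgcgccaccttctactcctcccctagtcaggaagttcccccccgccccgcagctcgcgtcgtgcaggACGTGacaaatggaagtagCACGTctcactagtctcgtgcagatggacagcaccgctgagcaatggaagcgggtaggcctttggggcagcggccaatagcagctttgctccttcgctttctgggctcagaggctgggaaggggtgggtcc
Ldha: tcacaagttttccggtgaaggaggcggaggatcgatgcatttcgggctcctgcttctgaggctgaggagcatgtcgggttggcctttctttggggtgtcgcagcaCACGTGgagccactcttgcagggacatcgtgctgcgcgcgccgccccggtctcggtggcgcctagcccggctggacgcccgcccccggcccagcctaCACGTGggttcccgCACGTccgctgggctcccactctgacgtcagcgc
Egln3: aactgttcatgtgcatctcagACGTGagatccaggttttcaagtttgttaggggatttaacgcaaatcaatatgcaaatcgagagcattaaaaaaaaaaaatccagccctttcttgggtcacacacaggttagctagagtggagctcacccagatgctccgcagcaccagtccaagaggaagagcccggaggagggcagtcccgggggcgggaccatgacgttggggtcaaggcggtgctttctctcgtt
The Ldha window shown held 3 cores, 2 of them as the palindrome, Pgk1 held 2, and Slc2a1 and Egln3 held 1 each.

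In vitro, Dex was compared with the untreated controls. Slc2a3 and Ero1l fell and Ndrg1 rose, while no enzyme of glycolysis passed the test. Slc2a3 (chr6, 122727809 to 122801640, minus strand, GRCm38) stood at 516.8, 472.9 and 481.3 CPM in the 3 controls and at 320.0, 325.4 and 323.9 CPM with Dex. The Dex libraries lay close together and below every control. Slc2a3 fell to 0.659 times the control (log2 fold change -0.60, SE 0.05, edgeR adjusted p = 7.83e-05). Ero1l (chr14, 45283087 to 45318771, minus strand) was at 627.0, 534.5 and 594.5 CPM in the controls and 442.2, 386.9 and 500.1 CPM with Dex. All Dex libraries were again lower, with more spread. Its log2 fold change was -0.40 (SE 0.09, edgeR adjusted p = 0.0369). Ndrg1 (chr15, 66929318 to 66969640, minus strand) was at 198.0, 184.5 and 178.7 CPM in the controls and 304.6, 263.0 and 244.2 CPM with Dex. Every Dex library was higher than every control, and the log2 fold change was 0.53 (SE 0.11, edgeR adjusted p = 0.0255). The calls for Ero1l and Ndrg1 depended on single libraries: without control 1, control 3, Dex 1 or Dex 2 only Slc2a3 was left past the threshold, and likewise when libraries were scaled by total counts. Ndrg1 was also lost without control 2, and Ero1l without TGF-β1 1, TGF-β1 2, TGF-β1 + Dex 1 or TGF-β1 + Dex 2, which enter through the shared spread, and when the groups compared were fitted alone.

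With Dex, 3 of 32 tested members were called, against 1.83% of all genes, and 6 had groups that did not overlap, against 19.3% of all genes. The called share lies above the background, and the share without overlap is close to it. Beside the 3 called, the nonoverlapping members were the collagen hydroxylase P4ha1, the phosphofructokinase gene Pfkp and Eno1 (enolase), all with lower values. The members' median log2 fold change was -0.04, and 21 of 32 were negative. Ldha had -0.05 (95% interval -0.14 to 0.05), Gapdh -0.03, Hk2 (hexokinase) -0.05, Slc2a1 0.16 (edgeR adjusted p = 0.627) and Hif1a 0.13 (edgeR adjusted p = 0.602). The ratio per kilobase of Slc2a3 to Slc2a1 was 2.88 ± 0.119 with Dex (n = 3). Of the other genes of the pathway, none of 24 tested glycolysis genes and 1 of 34 tested hypoxia genes passed. That gene was Rbpj, the Notch transcription factor, which fell from 225 ± 3.12 to 180 ± 6.72 CPM (log2 fold change -0.32, SE 0.07, edgeR adjusted p = 0.0277).

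**Figure D2:**
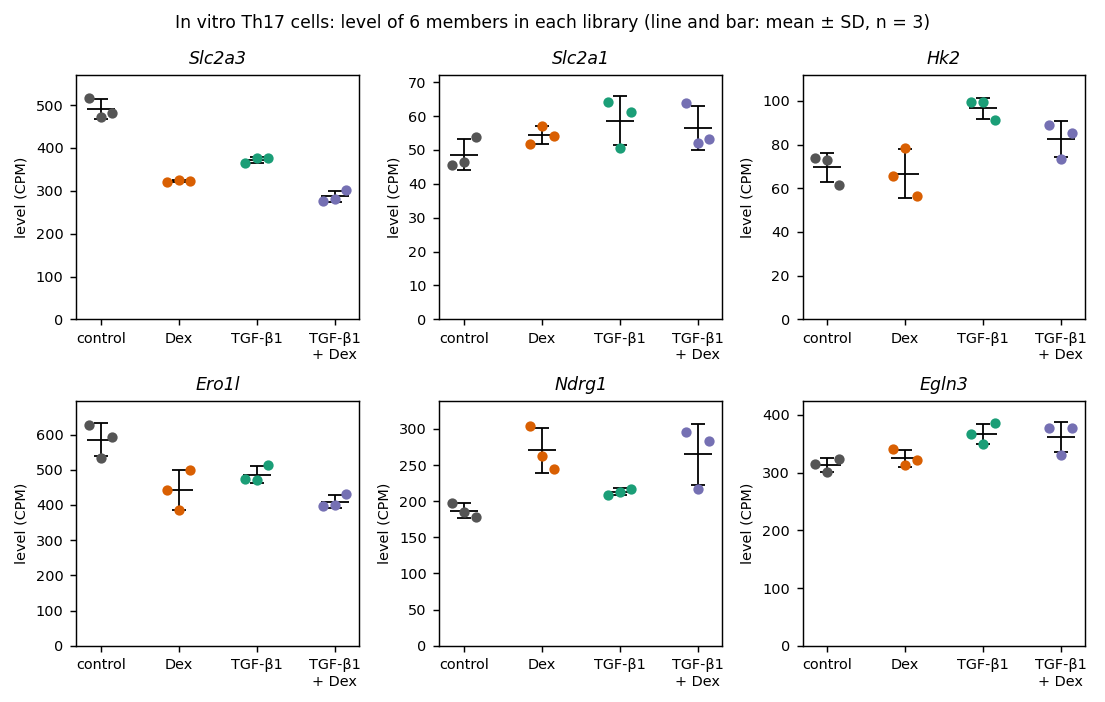
CPM of Slc2a3, Slc2a1, Hk2, Ero1l, Ndrg1 and Egln3 in the 4 in vitro groups; each point is a library, and lines show mean ± SD (n = 3), with axes from 0. Slc2a3 is lower in all 3 treated groups than in every control library, from 490 ± 23.3 CPM in control to 287 ± 13.8 CPM with TGF-β1 + Dex.

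TGF-β1 was compared with the same 3 control libraries, so its values share their error with those for Dex. Only Slc2a3 passed. It was at 364.5, 376.7 and 375.6 CPM with TGF-β1, below all controls and above all Dex libraries. It fell to 0.760 times the control (log2 fold change -0.40, SE 0.05, edgeR adjusted p = 0.000763), a call lost when libraries were scaled by total counts (edgeR adjusted p = 0.0766). Hk2 (chr6, 82725025 to 82774454, minus strand), the inducible hexokinase, was at 73.8, 73.0 and 61.6 CPM in the controls and 99.3, 99.4 and 91.1 CPM with TGF-β1. Its groups did not overlap, and it missed the threshold (log2 fold change 0.48, SE 0.12, edgeR adjusted p = 0.0523), which it passed in 8 of 22 alternative fits. Egln3 had 314.6, 300.6 and 324.3 CPM in the controls and 366.4, 349.8 and 385.6 CPM with TGF-β1 (log2 fold change 0.23, SE 0.07, edgeR adjusted p = 0.0866). Every TGF-β1 library lay above every control. Hk2 and Egln3 are described after their values were seen. Ero1l had a log2 fold change of -0.27 (edgeR adjusted p = 0.146), Slc2a1 0.26 (edgeR adjusted p = 0.31), Ndrg1 0.19, Ldha -0.01 and Hif1a 0.11.

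The 1 call with TGF-β1 among 32 tested members stands beside 3.29% of all genes, and 13 nonoverlapping members stand beside 21% of all genes. The called share is near the background, and the share without overlap is above it. The median log2 fold change of the members was 0.02. Outside the module, Slc2a6, a glucose transporter of internal membranes, rose from 40.4 ± 2.78 to 55.0 ± 3.22 CPM (log2 fold change 0.44, SE 0.09, edgeR adjusted p = 0.0148), 1 of 24 glycolysis genes. Of 34 hypoxia genes 3 rose: the nuclear receptor Rora from 19.5 ± 0.331 to 45.4 ± 3.91 CPM (log2 fold change 1.21, SE 0.14, edgeR adjusted p = 0.000324), and 2 genes of low level named after their values were seen, Nt5e (CD73, log2 fold change 3.27, edgeR adjusted p = 3.28e-05) and Car9 (carbonic anhydrase 9, log2 fold change 1.11, edgeR adjusted p = 0.0393). Rora directs the Th17 programme and Nt5e makes adenosine, so both also have roles in T cells outside hypoxia.

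TGF-β1 + Dex was set against the same controls and gave the lowest Slc2a3 means. The 3 libraries had 276.8, 281.2 and 302.6 CPM, below every library of the other 3 groups. Slc2a3 fell to 0.586 times the control (log2 fold change -0.77, SE 0.05, edgeR adjusted p = 2.14e-06). Ero1l, at 396.6, 399.8 and 430.6 CPM, lay below all controls and all TGF-β1 libraries. It fell by 0.52 on the log2 scale (SE 0.09, edgeR adjusted p = 0.00282). Ndrg1, at 295.5, 216.5 and 282.8 CPM, lay above all controls, with library 2 well below the others, and rose by 0.51 (SE 0.11, edgeR adjusted p = 0.0133). The Ndrg1 call was lost without control 3, TGF-β1 + Dex 1 or TGF-β1 + Dex 3 and with total-count scaling. These were the 3 calls among 32 members, against 6.25% of all genes, and 10 members did not overlap, against 23.6%; both shares are a little above the background.

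Of the remaining members with TGF-β1 + Dex, Ankrd37, a small ankyrin-repeat target of HIF, was at 63.3, 79.3 and 56.7 CPM in the controls and 45.2, 44.8 and 45.7 CPM in the treated libraries. The groups did not overlap, and the log2 fold change was -0.55 (SE 0.19, edgeR adjusted p = 0.118). Values for Egln3 (log2 fold change 0.21, edgeR adjusted p = 0.0824), Mxi1 (0.36, adjusted p = 0.159), Hk2 (0.25, adjusted p = 0.291) and Slc2a1 (0.21, adjusted p = 0.38) were positive and did not pass. Ldha stood at 0.01, Hif1a at 0.13, and the median of the 32 members at 0.02. Of the other glycolysis genes 1 of 24 fell, Pdhb, a subunit of pyruvate dehydrogenase (log2 fold change -0.37, SE 0.10, edgeR adjusted p = 0.0384). Of the 34 other hypoxia genes, Rora (0.82, edgeR adjusted p = 0.00306) and Nt5e (3.42, edgeR adjusted p = 1.21e-05) rose. Nt5e is of low level and is again named after its values were seen. Rbpj (-0.24, edgeR adjusted p = 0.0479) and the mitochondrial Fam162a (-0.25, edgeR adjusted p = 0.0228) fell.

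**Figure D3:**
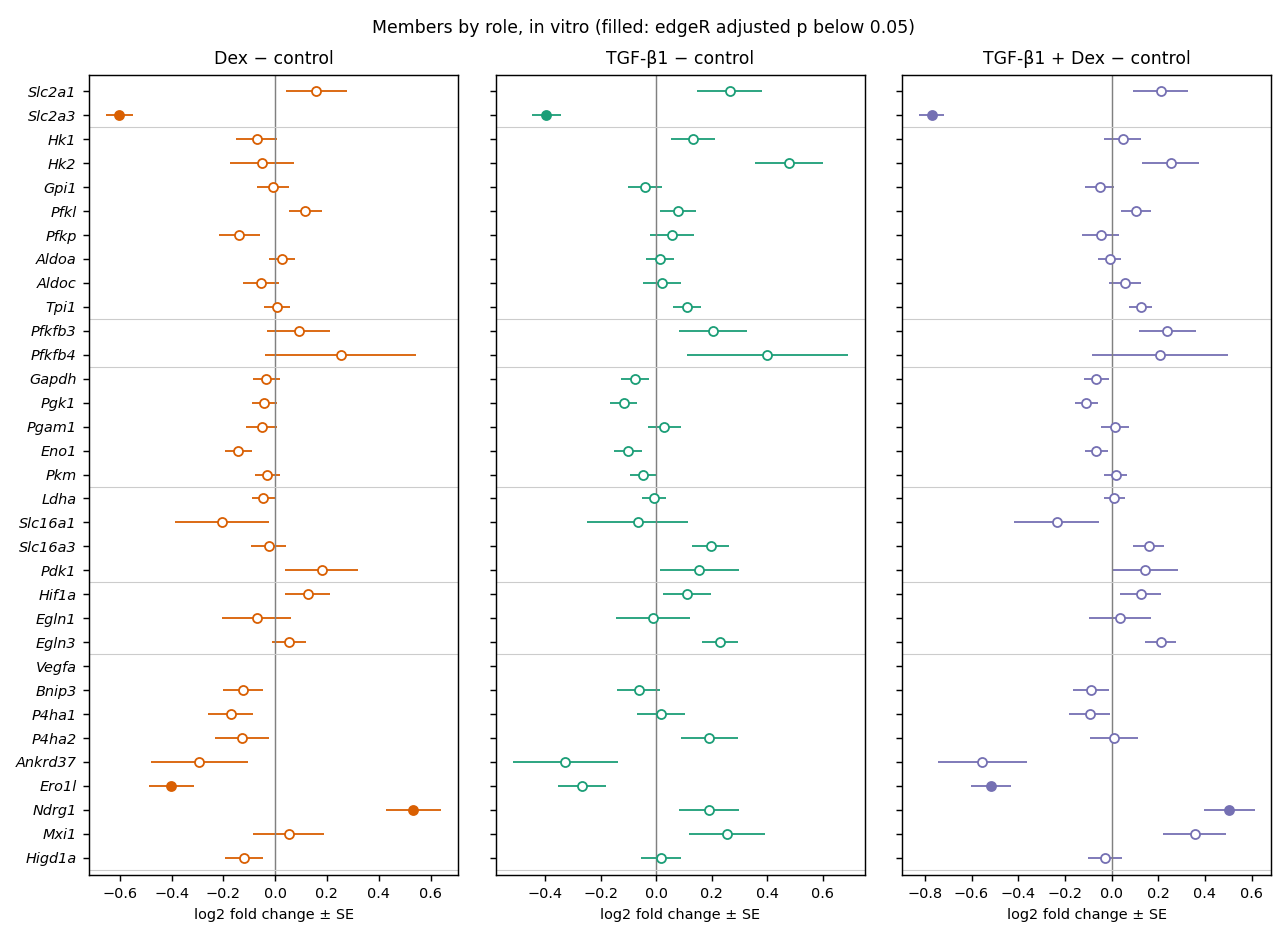
Log2 fold change ± SE of the 32 tested members, by role, for Dex, TGF-β1 and TGF-β1 + Dex against the same 3 controls; filled points have an edgeR adjusted p below 0.05, and the horizontal scales differ between panels. Slc2a3 is filled in all 3 panels, at -0.60, -0.40 and -0.77, and most enzymes lie near 0.

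Adding Dex to TGF-β1 called Slc2a3 alone (log2 fold change -0.37, SE 0.05, edgeR adjusted p = 0.00676), 1 of 32 members against 0.532% of all genes. The call was lost when libraries were scaled by total counts and when the 2 groups were fitted alone (edgeR adjusted p up to 0.34). Slc2a3, Ero1l, Hk2 and P4ha1 had every library of the combination below every TGF-β1 library, 4 of 32 members against 15.2% of all genes. Of the other hypoxia genes, Car9, named after its values were seen, fell (-1.42, edgeR adjusted p = 0.0423), and no other glycolysis gene passed.

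Adding TGF-β1 to Dex called no member of 32, against 2.62% of all genes; 6 had an unadjusted p below 0.05, and DESeq2 and limma voom also called 0. Slc2a3 had the smallest p (log2 fold change -0.17, SE 0.05, edgeR adjusted p = 0.138). The next negative members by p were Pgk1 (log2 fold change -0.07, edgeR adjusted p = 0.652) and Ankrd37 (-0.26, edgeR adjusted p = 0.665). Slc2a3, Ankrd37 and Mxi1 did not overlap between the groups, 3 of 32 members against 18.4% of all genes. The positive members of smallest p were Slc16a3 (0.18, edgeR adjusted p = 0.232), Hk2 (0.30, edgeR adjusted p = 0.292) and Egln3 (0.16, edgeR adjusted p = 0.322). Slc16a3 had 278.4, 244.6 and 253.3 CPM with Dex and 284.7, 277.7 and 318.2 CPM with both agents, so the groups overlapped. Slc2a1 (0.05, edgeR adjusted p = 0.921) and Hif1a (0.0001, edgeR adjusted p = 1) lay near 0. Outside the module Slc2a6 rose (0.40, edgeR adjusted p = 0.0422), as did Rora (0.93, edgeR adjusted p = 0.00292) and Nt5e (2.63, edgeR adjusted p = 0.00011). Nt5e is of low level here too and was named after its values were seen.

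The interaction term, which asks whether the combined effect on the log scale departs from the sum of the effects of Dex and TGF-β1, called 0 genes of 10332 (0%), members included, by edgeR, and DESeq2 and limma voom called no member. Of the members 2 had an unadjusted p below 0.05. Slc2a3 had a term of 0.23 (SE 0.07, edgeR adjusted p = 0.766) and Eno1 one of 0.18 (edgeR adjusted p = 0.86). The other members named by rule had edgeR adjusted p from 0.951 to 0.998: Pkm 0.09, Ndrg1 -0.22, Slc2a1 -0.21, Pfkfb4 -0.45 and Hif1a -0.11. The Slc2a3 term is positive because the combined change of -0.77 is smaller in size than the sum of the separate changes.

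In the CNS, the loss of Cyp11a1 was compared with WT. No member passed the test: 0 of 29, against 0.178% of all genes, with 2 at an unadjusted p below 0.05, and DESeq2 and limma voom also called 0. Positive values were more frequent, 21 of 29 members (50.5% of all genes were positive), with a median log2 fold change of 0.12 (0.003 for all genes). Pfkfb3 was at 15.4, 14.5, 12.7 and 10.3 CPM in WT and 15.6, 17.3 and 20.6 CPM as the lowest, median and highest of 6 cKO libraries. All cKO libraries lay above all WT libraries by a small margin, and the log2 fold change was 0.42 (SE 0.14, edgeR adjusted p = 0.402). Egln1, the main oxygen sensor, was the only other member whose groups did not overlap, and 2 of 29 stand beside 1.97% of all genes. Egln1 was low, at 2.91 to 3.13 CPM in WT and 3.16 to 4.99 CPM in cKO, and the gap was narrow (log2 fold change 0.33, SE 0.21, edgeR adjusted p = 0.782).

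The transporter Slc2a3 had 14.2, 20.7, 15.3 and 15.4 CPM in Cyp11a1 WT and 15.9, 22.7 and 25.4 CPM as lowest, median and highest in cKO. The groups overlapped through WT 2, and the log2 fold change was 0.39 (SE 0.17, edgeR adjusted p = 0.571). Eno1 had 399, 575, 651 and 513 CPM in WT and 580, 601 and 758 CPM in cKO. Only WT 3 reached the cKO range (log2 fold change 0.23, SE 0.12, edgeR adjusted p = 0.708). The negative members of smallest p overlapped widely: Ankrd37 had 18.9 ± 4.78 CPM in WT and 15.5 ± 4.83 CPM in cKO, and Ero1l 37.5 ± 6.34 and 34.01 ± 4.08 CPM. Pdk1, which restrains pyruvate dehydrogenase, had 18.6 ± 4.23 and 16.3 ± 3.39 CPM (SD, n = 4 and 6; edgeR adjusted p = 0.825, 0.832 and 0.861 for these 3 genes). Slc2a1 had 8.25, 11.8, 9.22 and 7.42 CPM in WT and 8.60 to 12.5 CPM in cKO (edgeR adjusted p = 0.872), and Hif1a 131 ± 15.7 and 135 ± 16.5 CPM (edgeR adjusted p = 0.964).

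The size of the positive lean changed with the libraries kept. WT 1 was the lowest library for 16 of 29 members, against 14.2% of all genes, and cKO 1 the highest for 14 of 29, against 10.8%. The median over members was 0.06 without WT 1, 0.19 without WT 2, 0.08 without WT 4 and 0.05 without cKO 1. It stayed positive in each of these fits. Without WT 1 and WT 4 together it was -0.02, with 17 of 32 members negative. This fit covered 32 members, so its median is not over the same 29. Leaving out WT 1, so often the lowest library, raises the WT level by construction, but WT 1 alone did not change the sign. WT 4 was the lowest library for 4 of 29 members, against 13.5% of all genes. The lean thus depends on the WT libraries kept, and why was not tested. The summed level of 22 proliferation genes was 891 to 1822 CPM in WT, with WT 1 the lowest, and 1302 to 1788 CPM in cKO. Myeloid marker sums were higher in cKO, as given above, and with that sum as a covariate the members' median was 0.32 and 0 of 29 passed. With the proliferation sum as a covariate, chosen after seeing the data, the median was 0.06 and 0 of 29 passed. In the other lists, 0 of 21 glycolysis and 0 of 29 hypoxia genes passed, with 1 and 6 at an unadjusted p below 0.05, by edgeR.

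**Figure D4:**
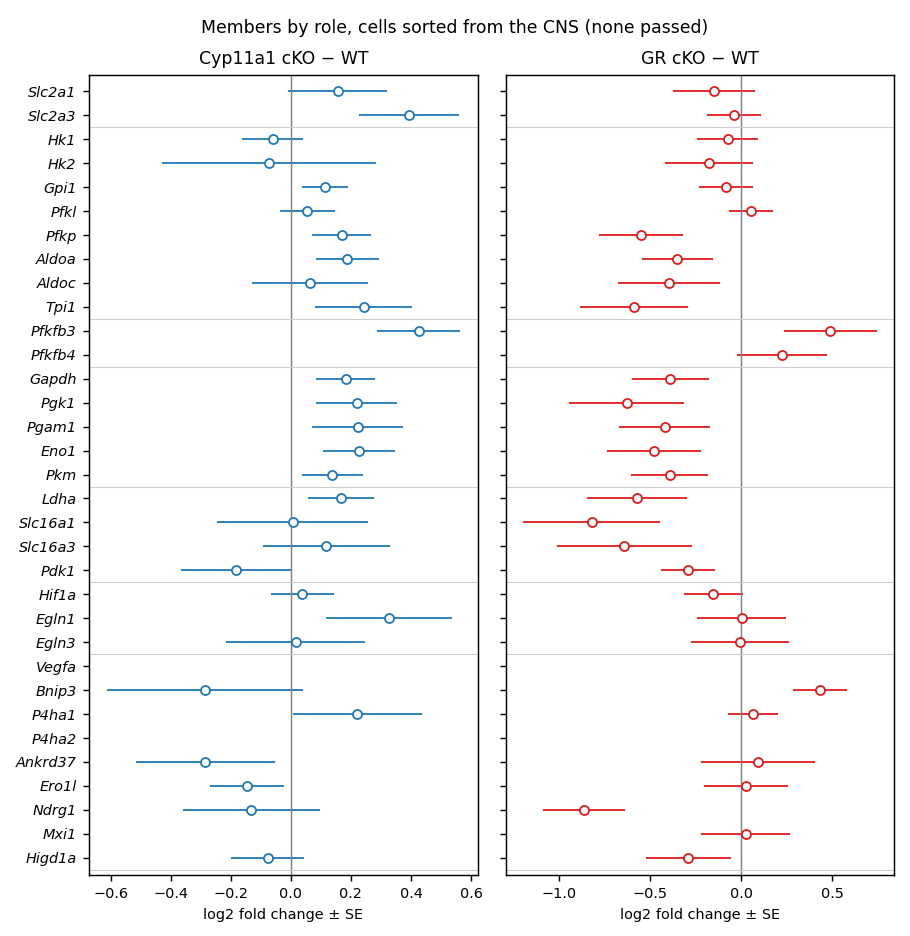
Log2 fold change ± SE of the tested members, by role, for Cyp11a1 cKO against WT (29 members) and GR cKO against WT (31 members); an open point marks an edgeR adjusted p of 0.05 or more. No point is filled in either panel.

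In the GR experiment the loss of the receptor was compared with WT in the same setting. No gene was called at all (0 of 10597, 0%), so none of the 31 tested members was; 3 members had an unadjusted p below 0.05, and DESeq2 and limma voom called no member. Ndrg1 was at 7.51, 6.43, 10.05 and 9.05 CPM in cKO and 11.8, 18.0, 12.1, 20.7 and 12.6 CPM in WT. Every cKO library lay below every WT library (log2 fold change -0.86, SE 0.22, edgeR adjusted p = 0.580). Bnip3 was at 9.39, 12.9, 12.4 and 11.5 CPM in cKO and 8.34, 8.92, 8.90, 9.21 and 7.36 CPM in WT. Its cKO libraries all lay above WT, cKO 1 only just (log2 fold change 0.43, SE 0.15, edgeR adjusted p = 0.580). These 2 nonoverlapping members of 31 stand beside 2.25% of all genes.

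The other members of small p in the GR comparison overlapped. Pfkp had 94.6, 110, 95.6 and 58.8 CPM in cKO and 98.8, 147, 168, 155 and 88.7 CPM in WT (log2 fold change -0.55, edgeR adjusted p = 0.580). Slc16a1, the lactate and pyruvate transporter MCT1, had 1.88 to 2.804 CPM in cKO and 1.75 to 6.68 CPM in WT (log2 fold change -0.82, edgeR adjusted p = 0.580). Pfkfb3 had 54.8, 40.1, 55.3 and 56.4 CPM in cKO and 40.6, 35.1, 21.5, 27.9 and 59.9 CPM in WT (log2 fold change 0.49, edgeR adjusted p = 0.580). Its WT 5 library was the highest of all. Pfkfb4 had 11.2 to 17.0 CPM in cKO and 8.96 to 18.6 CPM in WT (edgeR adjusted p = 0.759). Slc2a3 had 14.9 to 16.9 CPM in cKO and 12.6 to 18.7 CPM in WT (log2 fold change -0.04, edgeR adjusted p = 0.948). Slc2a1 had 9.08 to 15.8 and 11.1 to 21.0 CPM (edgeR adjusted p = 0.836), and Hif1a 92.6 to 132 and 101 to 158 CPM (edgeR adjusted p = 0.757). The members' median log2 fold change was -0.17, with 22 of 31 negative, and -0.30 without cKO 2. In the other lists 0 of 21 glycolysis and 0 of 30 hypoxia genes passed, with 3 and 3 at an unadjusted p below 0.05, by edgeR.

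The myeloid marker sum and the summed proliferation genes both moved with many members across the GR libraries. WT 2, 3 and 4 and cKO 2 had a myeloid sum of 5423 to 12476 CPM, and WT 1 and 5 and cKO 1, 3 and 4 had 18964 to 25135 CPM. The same 2 sets had proliferation sums of 964 to 1783 CPM and 297 to 538 CPM, and all 22 proliferation genes had every library of high myeloid sum below every library of low sum. T cell marker sums overlapped, at 17266 to 21557 and 16185 to 21660 CPM. The 2 sets are not groups of the study, and they are given without a test. For 15 of 31 members every library of high myeloid sum, which is also of low proliferation sum, lay below every one of low myeloid sum, against 11% of all genes. Ldha was at 537 to 672 CPM in the former and 913 to 1385 CPM in the latter, Gapdh at 1407 to 1691 and 2148 to 2793 CPM, and Pgk1 at 117 to 162 and 227 to 345 CPM. Pfkfb3 (40.6 to 59.9 against 21.5 to 40.1 CPM) and Pfkfb4 (14.7 to 18.6 against 8.96 to 11.2 CPM) were the 2 members that lay the other way, against 8.12% of all genes. The levels of these libraries cannot be assigned to T cells alone.

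With the myeloid sum as a covariate the GR contrast for Ldha moved from -0.57 to -0.05, and the members' median from -0.17 to 0.01, with 14 of 31 negative. Bnip3 (0.52, edgeR adjusted p = 0.991) and Ndrg1 (-0.80, edgeR adjusted p = 0.991) kept their size. With the proliferation sum as a covariate instead, an alternative chosen after seeing the data, the values were much the same: Ldha had -0.005, Bnip3 0.53 (edgeR adjusted p = 0.961), Ndrg1 -0.81 (edgeR adjusted p = 0.984), and the median was 0.04 with 10 of 31 negative. The 2 sums cannot be told apart in these libraries. Pfkfb4 had the other sign under both covariates, at -0.13 and -0.18, and so had Hif1a, at 0.10 and 0.13. Among the 5 libraries of high myeloid sum alone, also chosen after seeing the data, Ldha had -0.13, Bnip3 0.49, Ndrg1 -0.44 and the median was -0.03. The low side holds 1 cKO library, too few for a value. By genotype, the proliferation sum was 379 to 1783 CPM in GR WT and 297 to 964 CPM in cKO.

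**Figure D5:**
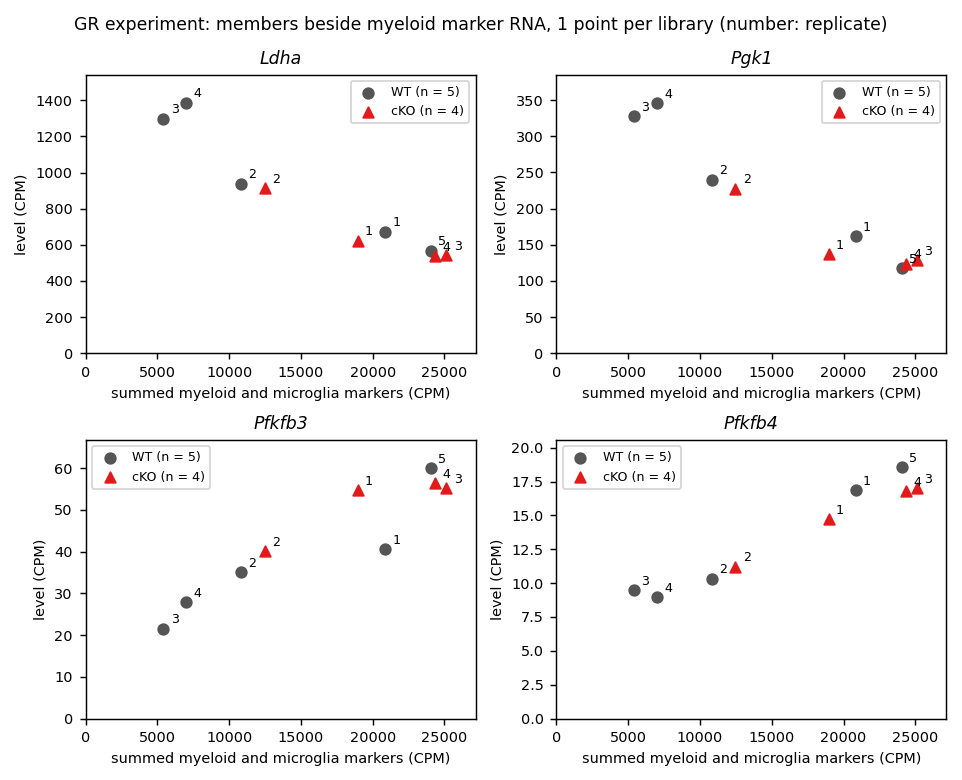
CPM of Ldha, Pgk1, Pfkfb3 and Pfkfb4 against the summed CPM of 21 myeloid and microglia markers in the 9 GR libraries (circles WT, n = 5; triangles cKO, n = 4; numbers are replicates). Ldha and Pgk1 are lower, and Pfkfb3 and Pfkfb4 higher, in the 5 libraries of high marker sum, of both genotypes; those 5 also have the lowest proliferation sums (297 to 538 CPM).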

How the data were processed

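Gene counts were deposited by the authors in 3 tables, whole numbers with no normalization; RSEM 1.3.3 and mm10 are named in the submitters' processing notes, and the aligner is not given in the sources used here. RNA was made into libraries by a modified SMART-Seq2 protocol and read in pairs, per the labels' protocols. The 31 libraries held 2769203 to 5623305 counts, which sets the precision of low genes; 3 counts were taken as the floor for counting error. Each table was fitted whole with edgeR 4.0.16 (R 4.3.3): filterByExpr, TMM scaling and the robust quasi-likelihood F test, with Benjamini-Hochberg adjustment over all tested genes and a threshold of 0.05. In vitro, 1 fit held the 4 groups. CPM are TMM-scaled counts per 1000000. CPM per kb divides by the joined length of all annotated exons of the gene in GENCODE M21, which also gave coordinates (GRCm38). SE is the log2 fold change divided by the root of F. The computation was tested on simulated data. Alternatives were other scalings, other filters, DESeq2 1.42.0, limma 3.58.1 voom with sample weights, a replicate block, a myeloid or a proliferation covariate, removal of repeat-like predicted genes and leaving out libraries. Repeat-like genes took 9.09 to 54.6% of a library. Pairs of replicates differed by more than sampling noise (chi-square per degree of freedom 2.79 to 142), so none was merged. Named by rule are members past the threshold, or, where none passed, the 3 of smallest p in each direction with Slc2a1, Slc2a3 and Hif1a; other members given with values beside these, such as Hk2 and Egln3 with TGF-β1, Ankrd37 and Mxi1 with TGF-β1 + Dex, and Ldha and Gapdh, were named after their values were seen; from the other pathway lists, up to 4 genes past the threshold of largest change whose mean log2 CPM reached 4. Nt5e and Car9, of low level, are exceptions to this rule and were named after their values were seen. Members, lists and left-out libraries were chosen with earlier results of these data known.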

Additional observations from a re-analysis of the deposited data

Results flagged for a closer look

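In each CNS group of 4 to 6 libraries, a library was picked out where its gap to the next one was a large share of the group's range (Dixon's 95% value). Chance picks about 1 in 20 groups, and 14 of the 120 member and group combinations examined were picked. The combinations share libraries and are not independent, so an excess over chance cannot be read from these numbers. In GR cKO, library 2 was the highest of 4 for Aldoa (661 CPM), Tpi1 (273 CPM), Gapdh (2148 CPM), Pgk1 (227 CPM), Pgam1 (179.9 CPM), Eno1 (459 CPM) and the mitochondrial Higd1a (67.8 CPM), and the lowest for Pfkfb3 (40.1 CPM, the next being 54.8 CPM). That library also had the lowest myeloid marker sum of the 4, 12476 CPM, and the highest proliferation sum, 964 CPM. In Cyp11a1 cKO, library 1 was the highest of 6 for Gpi1 (343 CPM), Eno1 (758 CPM) and Ldha (1403 CPM, the next being 1191 CPM). Hk2 was at 15.6 CPM in Cyp11a1 cKO library 6, with 7.31 CPM in the next. P4ha1 was at 21.2 CPM in Cyp11a1 WT library 3, with 16.1 CPM in the next. Slc2a1 was at 21.0 CPM in GR WT library 4, with 13.4 CPM in the next.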

How the results depend on the processing

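With Dex, 3 members passed; scaling by total counts left 1, and leaving out a library left 1 to 3. With TGF-β1, 1 passed; total counts left 0, no low-count filter gave 2, a mean count of at least 50 gave 3, DESeq2 2, limma voom 2 and the groups alone 2, and leave-one-out fits 1 to 2. With TGF-β1 + Dex against control 3 passed, and 2 to 4 when a library was left out. Against TGF-β1 alone 1 passed, 0 with total counts and 0 with the groups alone, and 1 in every leave-one-out fit. The other 4 comparisons called 0 members under each alternative run. Slc2a3 stayed called in 22 of 22 alternatives for Dex (log2 fold change -0.62 to -0.56) and for TGF-β1 + Dex (-0.81 to -0.72), as did Ero1l for TGF-β1 + Dex. Ero1l for Dex was lost in 10 of 22 and Ndrg1 for Dex in 6. The causes were not tested.

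The fit with a replicate block gave 3 members for TGF-β1 and moved no other count by over 1.5 times. Replicate numbers showed no strong pairing: same-numbered libraries' deviations had correlations of -0.139 to -0.042 (Cyp11a1), -0.238 to 0.125 (GR) and -0.019 to 0.073 (in vitro). In vitro their mean was 0.030, against -0.015 for pairs of other numbers. In the CNS it was -0.094 against 0.019 (Cyp11a1) and -0.076 against 0.018 (GR). Whether same-numbered in vitro libraries share a weak effect was not tested. Depth limits Vegfa, P4ha2, Slc16a1 and Egln1 in the CNS, with few counts in each library.

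Of 61 gene results, 15 changed sign in at least 1 alternative (36 of 1321 values), none of them past the threshold there. In GR, the myeloid covariate, the proliferation covariate and the libraries of high myeloid sum alone gave 0.13, 0.12 and 0.25 for Slc2a3, -0.13, -0.18 and -0.12 for Pfkfb4, and 0.10, 0.13 and 0.099 for Hif1a; the covariates gave 0.016 and 0.036 for Slc2a1. The members' median changed sign too, to 0.01 and 0.04 with these covariates. In Cyp11a1, Hif1a had -0.056 with the block, -0.024 with the proliferation covariate and -0.074 without WT 1 and 4, where Slc2a1 had -0.028 and the median was -0.02; Ero1l had 0.041 with the myeloid covariate. In vitro, Ldha had 0.0086 for TGF-β1 at a mean count of 50 and -0.025 for TGF-β1 + Dex with total counts, and Hif1a against Dex had -0.012, -0.033 and -0.00048 with upper quartile, total counts and limma voom. Leaving out libraries gave ranges across 0 for Hif1a (Cyp11a1, -0.015 to 0.12; TGF-β1, -0.0033 to 0.18; TGF-β1 + Dex against Dex, -0.033 to 0.035; interaction, -0.18 to 0.0098), Slc2a1 (GR, -0.30 to 0.041; TGF-β1 + Dex against Dex, -0.042 to 0.10), Slc2a3 (GR, -0.10 to 0.022), Hk2 (Dex, -0.19 to 0.059), Gapdh (Dex, -0.067 to 0.0018) and Ldha (TGF-β1, -0.032 to 0.034; TGF-β1 + Dex, -0.0036 to 0.038).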
